A study of Mus musculus with 9 samples.

Results

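The genes of glucose use were followed in mouse heart after oxaliplatin, a platinum drug given against cancer. They were a fixed list of 35 genes for glucose uptake, glycolysis, the pentose phosphate pathway and glycogen, taken by gene symbol from the deposited table of normalized gene counts. Of the 35 genes 34 had a row among the 13795 genes of the table, and Aldoc was not analysed here. Hearts came from C57BL/6 mice: 5 samples from mice given 10 mg/kg oxaliplatin and 4 samples from mice given vehicle, collected after 8 weeks. All samples share the strain and the tissue, and the labels give no genotype difference, age or sex and do not say whether tissue of several animals was pooled. Samples are named oxaliplatin 1 to 5 and vehicle 1 to 4, by the numbers in their titles. The series concerns energy metabolism in heart tissue after oxaliplatin, and the comparison asks how the genes of glucose use differed between oxaliplatin and vehicle hearts.

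Glycolysis splits glucose to pyruvate in the cytosol, and each of its steps can be served by enzymes from more than one gene. Adult heart muscle burns mostly fatty acids, and it carries muscle forms of several enzymes (Pfkm, Pgam2, Eno3, Pygm) and the insulin-responsive transporter Slc2a4, while endothelial, fibroblast, blood and dividing cells use widely expressed forms (Pfkp, Pfkl, Pgam1, Eno1, Slc2a1). The pentose phosphate pathway draws on glucose 6-phosphate to make NADPH and ribose for nucleotides, and glycogen is the stored form of glucose that muscle phosphorylase breaks down.

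Each sample rested on 28.5 M to 36.2 M reads, estimated from the step that 1 read is worth. All 14 cardiomyocyte markers were in the table, none at 0 in any sample, and their summed level was 1.55 M to 2.24 M normalized counts in oxaliplatin samples and 2.03 M to 2.49 M in vehicle samples. All 14 had negative log2 fold changes, 3 of them past the test, with a median of -0.34, and of 6 ventricular markers 5 were lower and 1 higher. Their part in the values of the muscle forms was not tested. The markers of other cell types differed between samples. All 10 endothelial markers had positive log2 fold changes, 3 of them past the test, and none was at 0. Their summed level ran from 40329.7 to 78048 normalized counts in oxaliplatin samples and from 30350.1 to 38331 in vehicle samples, without overlap. Fibroblast markers (11 of 11 in the table, 2 higher) summed to 77878 to 179370 in oxaliplatin samples and 76159 to 110804 in vehicle samples. Markers of smooth muscle and pericytes (9 of 9, 1 higher) summed to 21408 to 37322 in oxaliplatin samples and 14649 to 21623 in vehicle samples. Of these 3 lists the endothelial sums alone did not overlap. Proliferation genes (12 of 12, 11 higher) summed to 1639 to 4424 in oxaliplatin samples and 1047 to 1124 in vehicle samples. Erythroid markers (8 of 8, 0 passed) summed to 8329 to 359844 in oxaliplatin samples and 222495 to 572532 in vehicle samples. All 8 had negative log2 fold changes, with a median of -2.79. Oxaliplatin 3, at 359844, alone made the overlap, and the other oxaliplatin sums ran from 8329 to 43341. Atrial markers were high in oxaliplatin 2, oxaliplatin 4 and vehicle 1, with scores of 3.33, 2.79 and 2.55 on the log2 scale relative to the mean of all samples.

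**Figure D1:**
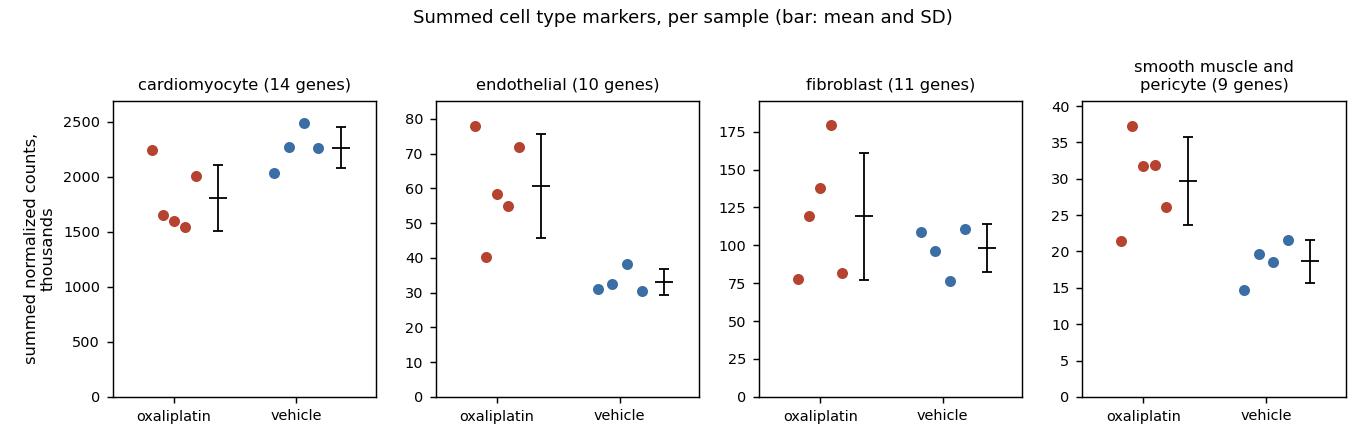
Summed normalized counts (in units of 1000, vertical axis from 0) of markers of 4 cell types in each sample, with oxaliplatin samples left of vehicle samples and the group mean and SD as a bar. The endothelial sums of the 5 oxaliplatin samples all lie above those of the 4 vehicle samples, while the sums of cardiomyocyte, fibroblast and smooth muscle markers overlap.

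Genes of glucose use rose in part, and 5 of the 7 that passed were widely expressed forms with a muscle partner. In limma 7 of the 34 genes rose, where 9.23% of all 13788 genes tested did, and 0 fell, where 5.03% of all genes did. The 7 were Slc2a1, Hk1, Pfkp, Pgam1, Eno1, Tkt and Pygl. The log2 fold change was positive in 23 of the 34, against 47.7% of all genes tested, and its median was 0.29, against -0.02 over all genes. The oxaliplatin and vehicle samples did not overlap for 9 of the 34, all higher in oxaliplatin, where 8.99% of all genes were higher and 5.93% lower without overlap. By role, 1 of 2 uptake genes, 2 of 9 genes of the upper steps of glycolysis, 2 of 9 of the lower steps, 1 of 6 of the pentose phosphate pathway and 1 of 8 of glycogen rose. Pfkp, Eno1 and Tkt passed whichever single sample was left out, while Pgam1 did not pass without vehicle 1 or vehicle 2, Hk1 did not pass in 6 of the 9 such fits, Pygl in 7 and Slc2a1 in 8. With an endothelial marker score as a covariate, which separates the groups completely, 0 of the 34 genes and 0 of all genes passed in limma. At an unadjusted p under 0.05 there were 10 of the 34 and 2044 of all 13788 genes. In that fit the log2 fold change was -0.0799 for Pfkp, -0.24 for Hk1, -0.17 for Slc2a1, 0.0045 for Eno1, 0.087 for Pgam1, 0.86 for Tkt and 0.98 for Pygl. With an erythroid score Pfkp and Eno1 passed, while the log2 fold changes of the other 5 were 0.56 for Slc2a1, 0.61 for Hk1, 0.38 for Pgam1, 0.65 for Tkt and 0.55 for Pygl. With a fibroblast score Pfkp, Gapdh, Pgam1 and Eno1 passed, and the log2 fold changes were 0.47 for Slc2a1, 0.57 for Hk1, 0.38 for Tkt and 0.63 for Pygl. The labels name separate samples but not separate animals, so the spread behind each p-value may be partly technical. In bulk tissue fewer cells of a type and less RNA per cell cannot be told apart.

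**Figure D2:**
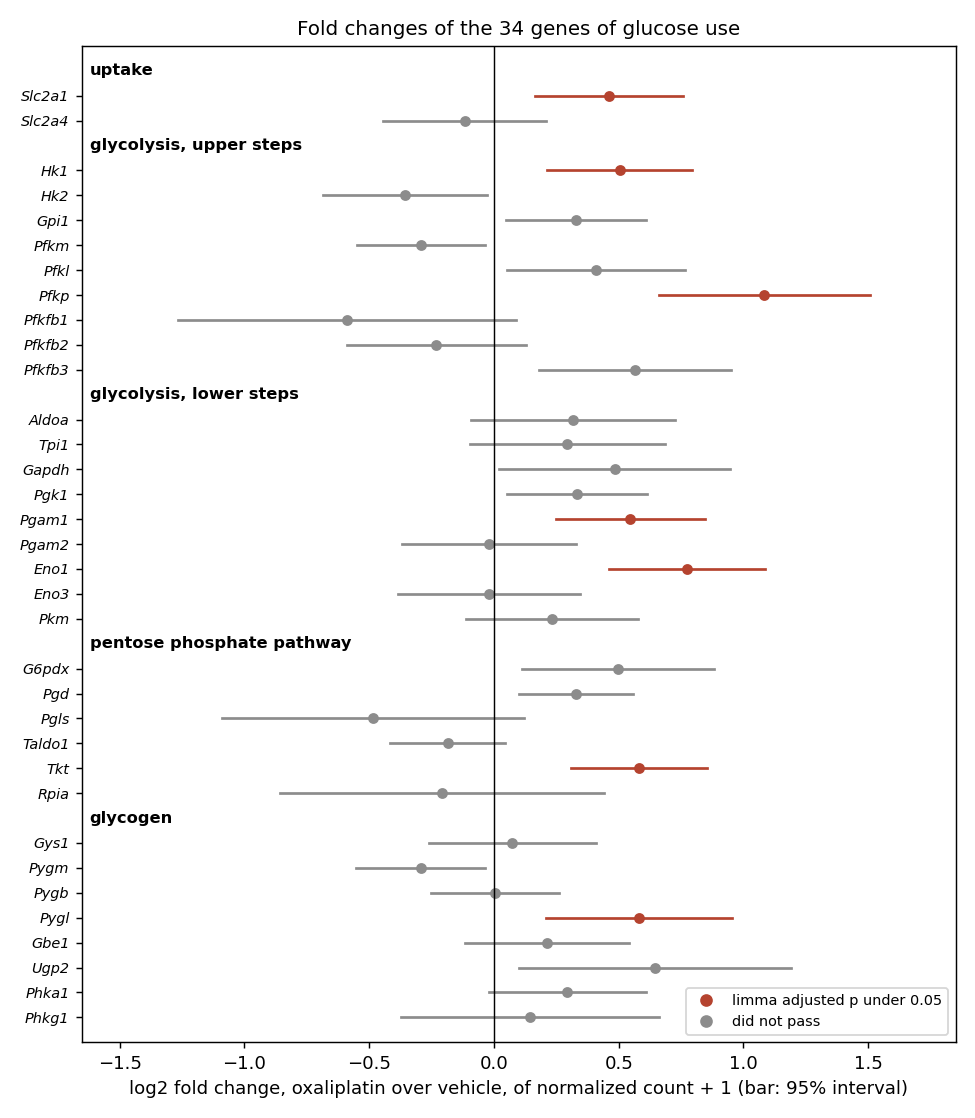
Log2 fold change (horizontal axis, oxaliplatin over vehicle, of normalized count + 1) of the 34 genes, grouped by role, with 95% intervals from limma. The 7 genes that passed are coloured, from Slc2a1 at 0.46 to Pfkp at 1.08, and Pgam2 and Eno3 at -0.02 and Pygb at 0.00 lie nearest to 0.

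Muscle and widely expressed forms of the same enzyme differed in their fold changes, and the part of cell makeup in this was not tested. Among 8 muscle forms, Aldoa included although its partner Aldoc was not analysed, 0 passed and the median log2 fold change was -0.17. It was negative in 7 of them, of which Pgam2 and Eno3 turned positive with quantile normalization and with a fixed total without mitochondrially encoded genes. Among the 8 widely expressed partners 5 rose, all 8 had positive log2 fold changes and the median was 0.53. Of all genes tested 9.23% rose, 5.03% fell and 47.7% had a positive log2 fold change. The 18 genes in no pair also lay mostly above 0, with 2 that rose, 14 positive log2 fold changes and a median of 0.29. The difference between muscle and widely expressed forms was tested in 8 ratios of a muscle form to its partner, as log2 of normalized count + 1. A two-sided exact permutation test over the 9 samples was used. Each ratio was lower in oxaliplatin samples, with an exact p of 0.0159, the smallest that 5 against 4 samples allow, for 7 ratios and 0.0317 for the ratio of Pygm to Pygb. Adjusted by Benjamini-Hochberg over the 8 ratios these became 0.0181 and 0.0317. For 7 ratios every oxaliplatin sample lay below every vehicle sample, and for Pygm to Pygb 4 of 5 did. The share of such separation among ratios of other genes was not computed. The log2 ratio of summed cardiomyocyte to summed endothelial markers did not overlap either, at 4.78 to 5.36 in oxaliplatin and 6.02 to 6.22 in vehicle samples. The ratios were taken in the same 9 samples and 2 of them share Pfkm, so they are not independent of each other.

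The ratio of Pfkm to Pfkp moved most. On the log2 scale it was 2.52, 3.46, 2.97, 2.68 and 2.57 in oxaliplatin samples 1 to 5 and 4.11, 4.24, 4.28 and 4.22 in vehicle samples 1 to 4, a difference of -1.38 and a ratio 2.60-fold lower in oxaliplatin. Oxaliplatin 2 was nearest to the vehicle samples, which lay close together. The ratio of Hk2 to Hk1 averaged -0.28 ± 0.18 in oxaliplatin samples and 0.58 ± 0.16 in vehicle samples (SD, n = 5 and n = 4), a difference of -0.86. Its highest oxaliplatin value, -0.13, lay below its lowest vehicle value, 0.35. The ratio of Eno3 to Eno1 averaged 2.24 ± 0.32 in oxaliplatin samples and 3.03 ± 0.14 in vehicle samples, a difference of -0.80, and that of Pfkfb2 to Pfkfb3 averaged 1.58 ± 0.38 and 2.38 ± 0.32, also a difference of -0.80. For Pfkm to Pfkl the difference was -0.70, for Slc2a4 to Slc2a1 -0.58, for Pgam2 to Pgam1 -0.57 and for Pygm to Pygb -0.30. The log2 ratio of summed cardiomyocyte to summed endothelial markers averaged 4.92 ± 0.25 in oxaliplatin samples and 6.10 ± 0.09 in vehicle samples. The difference was -1.18, and with summed smooth muscle and pericyte markers it was -0.996 and with fibroblast markers -0.56. Among oxaliplatin samples, oxaliplatin 1 was highest for Pgam2 to Pgam1 (4.37), Pfkfb2 to Pfkfb3 (1.94) and Pygm to Pygb (0.08). Oxaliplatin 2 was highest for the other isoform ratios. The ratio of cardiomyocyte to endothelial markers was highest in oxaliplatin 2 (5.36) and next in oxaliplatin 1 (4.84). Those of cardiomyocyte to fibroblast markers (4.84) and to smooth muscle and pericyte markers (6.71) were highest in oxaliplatin 1. The part of cell makeup in the isoform ratios was not tested. Leaving out oxaliplatin 2, oxaliplatin 4 and vehicle 1, all 8 differences stayed below 0, from -1.56 for Pfkm to Pfkp to -0.29 for Pygm to Pygb, with Pfkfb2 to Pfkfb3 at -0.44, in 3 against 3 samples, too few for an exact test to reach 0.05. With quantile normalization the difference of Pgam2 to Pgam1 was -0.36.

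**Figure D3:**
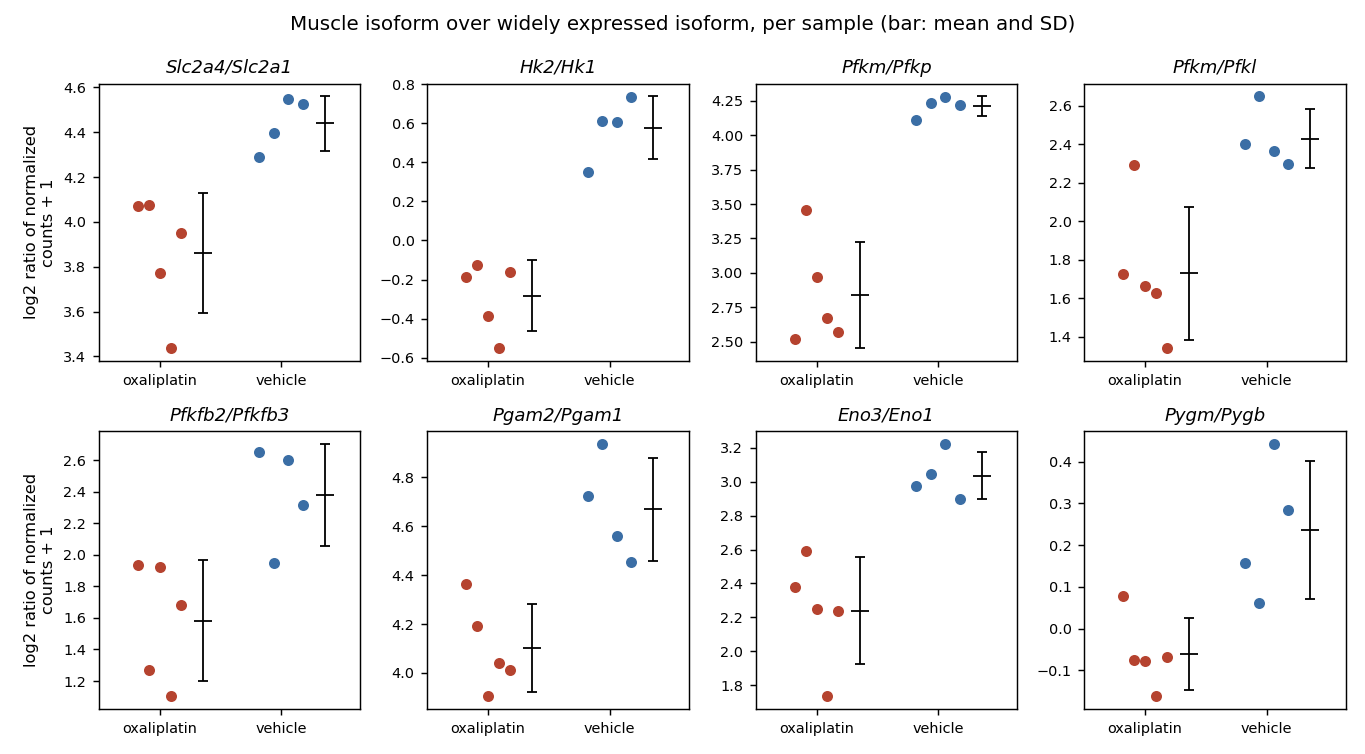
Log2 ratio of a muscle form to a widely expressed form (vertical axis, of normalized counts + 1) in each sample for 8 pairs, with oxaliplatin samples left of vehicle samples and the group mean and SD as a bar. In 7 panels the groups do not overlap, and in the panel of Pygm to Pygb oxaliplatin 1 at 0.08 lies above vehicle 2 at 0.06.

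Promoters of Pgam2 and Eno3 with their partners Pgam1 and Eno1, and of Pfkp, which had the largest rise, are shown because widely expressed genes often start in stretches rich in CG dinucleotides, which most tissue-specific genes lack. Each sequence is the 250 bases before the start site, 5′ to 3′ on the gene's strand, from RefSeq on GRCm38.p6, with each CG dinucleotide in capitals.
Pgam2, chr11:5803797-5804046, minus strand: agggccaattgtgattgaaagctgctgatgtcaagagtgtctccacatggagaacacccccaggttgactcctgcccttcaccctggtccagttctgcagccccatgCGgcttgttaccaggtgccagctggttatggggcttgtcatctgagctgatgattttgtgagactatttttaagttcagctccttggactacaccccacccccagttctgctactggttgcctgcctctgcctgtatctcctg
Pgam1, chr19:41911621-41911870, plus strand: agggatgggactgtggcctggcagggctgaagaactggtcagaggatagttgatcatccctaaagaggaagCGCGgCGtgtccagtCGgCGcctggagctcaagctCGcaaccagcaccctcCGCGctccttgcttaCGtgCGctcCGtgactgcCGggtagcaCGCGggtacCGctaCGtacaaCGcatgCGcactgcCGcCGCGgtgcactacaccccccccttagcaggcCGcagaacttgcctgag
Eno3, chr11:70656926-70657175, plus strand: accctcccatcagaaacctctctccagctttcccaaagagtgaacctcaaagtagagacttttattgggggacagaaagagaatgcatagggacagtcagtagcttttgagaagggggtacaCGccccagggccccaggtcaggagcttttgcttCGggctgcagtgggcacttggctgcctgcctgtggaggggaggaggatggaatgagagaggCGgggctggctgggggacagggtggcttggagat
Eno1, chr4:150236458-150236707, plus strand: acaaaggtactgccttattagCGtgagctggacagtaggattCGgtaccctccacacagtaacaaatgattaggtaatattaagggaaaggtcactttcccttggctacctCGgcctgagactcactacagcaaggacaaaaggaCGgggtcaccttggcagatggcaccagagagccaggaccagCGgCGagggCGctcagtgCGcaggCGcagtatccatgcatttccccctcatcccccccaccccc
Pfkp, chr13:6648772-6649021, minus strand: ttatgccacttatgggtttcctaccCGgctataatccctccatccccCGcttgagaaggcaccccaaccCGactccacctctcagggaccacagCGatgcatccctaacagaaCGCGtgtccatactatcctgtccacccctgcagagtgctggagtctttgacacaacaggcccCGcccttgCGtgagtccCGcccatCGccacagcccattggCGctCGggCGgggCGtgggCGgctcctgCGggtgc
The muscle forms hold few CG dinucleotides, 1 in Pgam2 and 3 in Eno3, and the widely expressed forms hold 22 in Pgam1, 9 in Eno1 and 16 in Pfkp, where the median of all 32851 windows was 6. The contrast did not run through every pair, since the window of Hk2 held 25 and that of Hk1 held 1. That of Aldoa, placed with the muscle forms, held 21 and that of Aldoc 5. Several genes had more than 1 listed start, among them Eno1 and Aldoa with 3 and Hk1 and Aldoc with 2. For these the start nearest to that of the principal transcript was taken, and which start these hearts used was not tested. Of 34 windows 10 ended at the start of the principal transcript. The distance was 244 bases for Eno1, 63 for Pgam2, 52 for Pgam1, 28 for Eno3 and 6 for Pfkp. Over 7 windows placed with the muscle forms the median was 6, and over 9 placed with the widely expressed forms, Aldoc included, it was 13. The sides were set for the pairs and not by measured breadth of expression, which for Aldoa and Aldoc was not tested. The letters GGGCGG, bound by Sp1, stood on either strand in 3 of the 7 and 4 of the 9, against 32.7% of all windows. Of the letters that hypoxia-inducible factor binds, ACGTG stood in 5 of 7 and 4 of 9 (16.6% of all windows) and GCGTG in 4 of 7 and 8 of 9 (28.2%). In the 18 windows of genes on neither side GGGCGG stood in 14, ACGTG in 2, GCGTG in 9 and TATAAA in 1, and the median of CG dinucleotides was 15.5. The median GC content was 58.4% in windows of muscle forms, 60.0% in those of widely expressed forms and 59.8% in those of neither, against 52.4% over all windows. ACGTG is also part of the E box CACGTG. The TATA box, searched as TATAAA, stood in 0 of the 7 and 0 of the 9, against 12.4% of all windows. Such matches are letters in a window and show no binding. Windows were matched for 34 of the 35 genes, without Slc2a4.

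Glucose transporters differed in their fold changes. Slc2a1, the basal transporter GLUT1, had 1237, 762, 952, 1169.6 and 1021 normalized counts in oxaliplatin samples 1 to 5, against 765, 785, 701 and 698 in vehicle samples 1 to 4. It rose by 0.46 on the log2 scale (standard error 0.14, limma adjusted p = 0.0409), and oxaliplatin 2 alone lay within the vehicle range. Slc2a4, the insulin-responsive GLUT4 of muscle and fat, averaged 15026 ± 3466 normalized counts in oxaliplatin samples and 16006 ± 728 in vehicle samples and did not pass (log2 fold change -0.12, 95% interval -0.45 to 0.21). Per kilobase of transcript, which allows levels of genes to be compared, Slc2a1 made up 5.12 ± 0.954% of the summed level of both in oxaliplatin samples and 3.45 ± 0.283% in vehicle samples, so Slc2a4 stayed the main form in every sample.

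Hexokinase traps glucose as glucose 6-phosphate, and its makeup shifted toward Hk1, the form bound to mitochondria in many tissues. Hk1 (chr10:62268855-62379908, minus strand, GRCm38) had 7701, 4799.9, 6426, 6552 and 6872 normalized counts in oxaliplatin samples 1 to 5, against 4552, 4083, 4677 and 4752 in vehicle samples. The groups did not overlap, and Hk1 rose by 0.50 on the log2 scale (standard error 0.13, limma adjusted p = 0.0248). Hk2, the insulin-responsive muscle form, had 6773, 4393, 4909.7, 4467 and 6145 in oxaliplatin samples, against 5811, 6238, 7120.4 and 7914 in vehicle samples, and did not pass (log2 fold change -0.36, adjusted p = 0.142). Hk2 was lower than every vehicle sample in oxaliplatin 2, 3 and 4, and within the vehicle range in oxaliplatin 1 and 5. Per kilobase, Hk1 made up 63.5 ± 2.89% of the summed level in oxaliplatin samples and 49.0 ± 2.79% in vehicle samples, while the summed level averaged 2648 ± 445 and 2401 ± 227 normalized counts per kb. Gpi1, the isomerase of the next step, had 18493 to 26798 normalized counts in oxaliplatin samples and 16832 to 17859 in vehicle samples, without overlap, and did not pass (log2 fold change 0.33, adjusted p = 0.111).

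Phosphofructokinase commits sugar to glycolysis, and its platelet form Pfkp rose most of the 34 genes. Pfkp (chr13:6579768-6648777, minus strand, GRCm38) had 4903, 2151, 2702, 3424 and 3854 normalized counts in oxaliplatin samples 1 to 5, against 1624, 1591, 1431 and 1537 in vehicle samples 1 to 4. Even the lowest oxaliplatin sample lay above every vehicle sample, and the rise was 1.08 on the log2 scale (standard error 0.19, limma adjusted p = 0.00415). Of the 50-base words of its transcript 17.1% also stand in the overlapping gene Pitrm1. The muscle form Pfkm had 28062, 23601, 21124, 21877 and 22896 in oxaliplatin samples, against 28118, 30041, 27854 and 28590.2 in vehicle samples. It did not pass (log2 fold change -0.29, 95% interval -0.55 to -0.03, adjusted p = 0.123), with oxaliplatin 1 inside the vehicle range and the other 4 below it. Without oxaliplatin 1 Pfkm was lower at an adjusted p of 0.0309, in a range of 0.0152 to 0.607 over all alternatives. The liver form Pfkl averaged 7227 ± 1663 in oxaliplatin samples and 5333 ± 426 in vehicle samples and did not pass (log2 fold change 0.41, adjusted p = 0.119). Per kilobase, Pfkp made up 7.41 ± 1.49% of the 3 forms in oxaliplatin samples and 3.17 ± 0.156% in vehicle samples, Pfkl 17.7 ± 3.09% and 12.2 ± 1.11%, and Pfkm 74.9 ± 4.27% and 84.7 ± 1.09%. The summed level of the 3 forms averaged 10926 ± 1402 normalized counts per kb in oxaliplatin samples and 11754 ± 284 in vehicle samples, with oxaliplatin 1 above every vehicle sample and the other 4 below them all.

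Pfkfb enzymes make and remove fructose 2,6-bisphosphate, an activator of phosphofructokinase. Pfkfb3, the inducible form, had 233, 310.0, 228, 260.1 and 204 normalized counts in oxaliplatin samples, against 169, 182, 122 and 198 in vehicle samples. The groups did not overlap, but Pfkfb3 did not pass (log2 fold change 0.57 with a standard error of 0.18, adjusted p = 0.0509 in limma). The heart form Pfkfb2 averaged 745 ± 142 in oxaliplatin samples and 875 ± 178 in vehicle samples, and Pfkfb1, the form of liver and skeletal muscle, 418 ± 134 and 637 ± 252 (adjusted p = 0.392 and 0.236). Pfkfb1 ran from 369 to 965 among the vehicle samples alone. Per kilobase, Pfkfb1 held 51.1 ± 6.68% of the summed level of Pfkfb1, Pfkfb2 and Pfkfb3 in oxaliplatin samples and 59.4 ± 13.5% in vehicle samples. Pfkfb2 held 36.9 ± 5.00% and 34.4 ± 12.0%. Of the 50-base words of the Pfkfb2 transcript 25.1% also stand in Gm29427, so its count is uncertain.

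**Figure D4:**
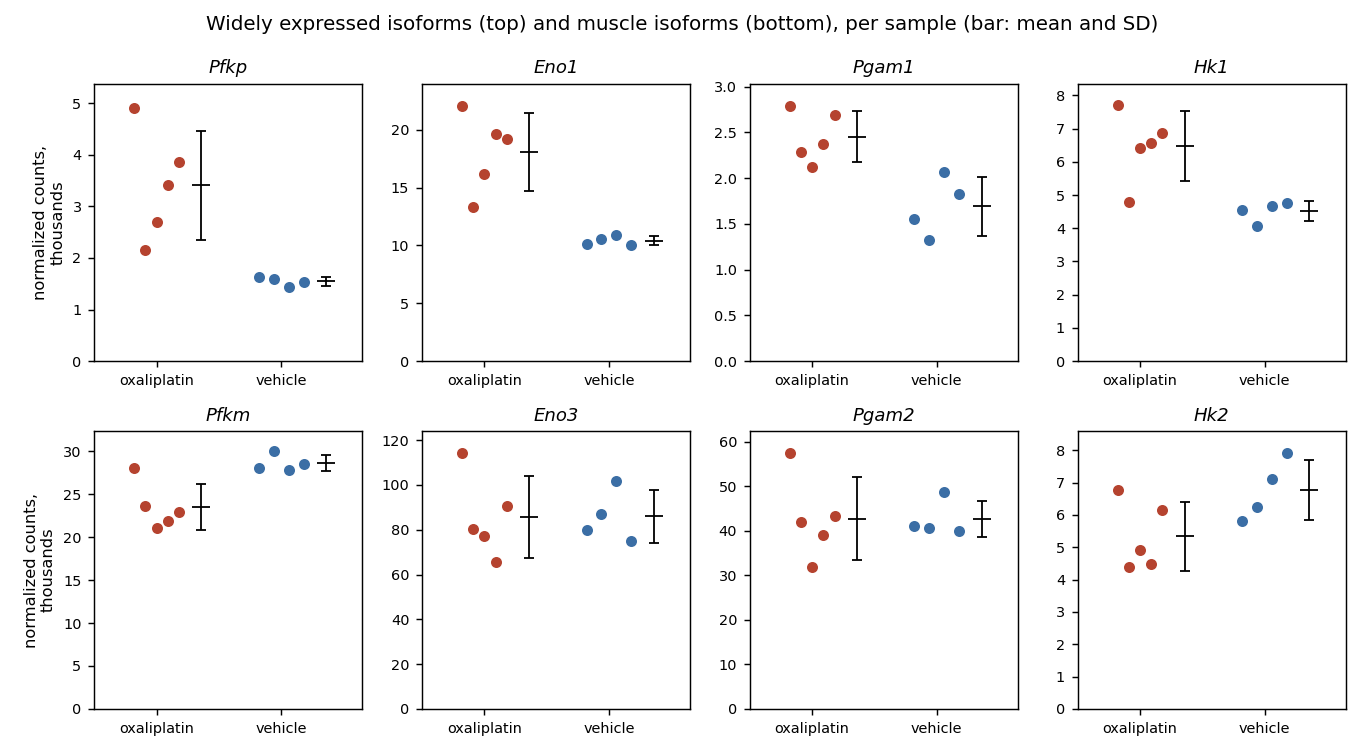
Normalized counts (in units of 1000, vertical axis from 0) of 4 widely expressed forms in the top row and their muscle partners in the bottom row, with oxaliplatin samples left of vehicle samples and the group mean and SD as a bar. The oxaliplatin samples of Pfkp, Eno1, Pgam1 and Hk1 all lie above the vehicle samples, while those of Pfkm, Eno3, Pgam2 and Hk2 overlap them.

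In the lower steps the widely expressed mutase and enolase rose. Eno1, enolase 1 (chr4:150236721-150248879, plus strand), had 22032, 13356, 16175, 19677 and 19182 normalized counts in oxaliplatin samples 1 to 5, against 10133, 10576, 10916 and 10066 in vehicle samples. The vehicle samples lay close together and every oxaliplatin sample lay above them (log2 fold change 0.77 with a standard error of 0.14, adjusted p = 0.00448 in limma). Eno3, the muscle enolase, had 114461, 80502, 77053, 65526 and 90565 in oxaliplatin samples, against 79679, 87198, 101831 and 74966 in vehicle samples. Its highest and its lowest value were both oxaliplatin samples, and the mean did not differ beyond the spread (log2 fold change -0.02, 95% interval -0.39 to 0.34). Per kilobase, Eno1 made up 14.2 ± 2.79% of the summed level of both in oxaliplatin samples and 8.63 ± 0.743% in vehicle samples.

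Pgam1, the widely expressed phosphoglycerate mutase (chr19:41911923-41918660, plus strand), had 2789, 2291, 2123, 2371 and 2686 normalized counts in oxaliplatin samples, against 1555, 1327, 2064 and 1823 in vehicle samples. It rose by 0.55 on the log2 scale (standard error 0.14, limma adjusted p = 0.0189), although oxaliplatin 3 and vehicle 3 lay close together. Pgam2, the muscle mutase, averaged 42719 ± 9385 in oxaliplatin samples and 42627 ± 4068 in vehicle samples (log2 fold change -0.02, 95% interval -0.37 to 0.33). Per kilobase Pgam2 held 97.3 ± 0.316% of the summed level in oxaliplatin samples and 98.2 ± 0.258% in vehicle samples, so the ratio changed while the muscle form still made up nearly all of it. Near-identical copies of Eno1 and Pgam1 elsewhere in the genome could take some of their reads: 72.2% of the 50-base words of the Eno1 transcript and 41.5% of those of Pgam1 also stand in other genes, so both counts are uncertain. Of the copies with a row of their own, Eno1b had a mean of 163, Gm4735 233 and Pgam1-ps2 46.4 normalized counts, and reads left out for matching several genes would show in none of them.

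**Figure D5:**
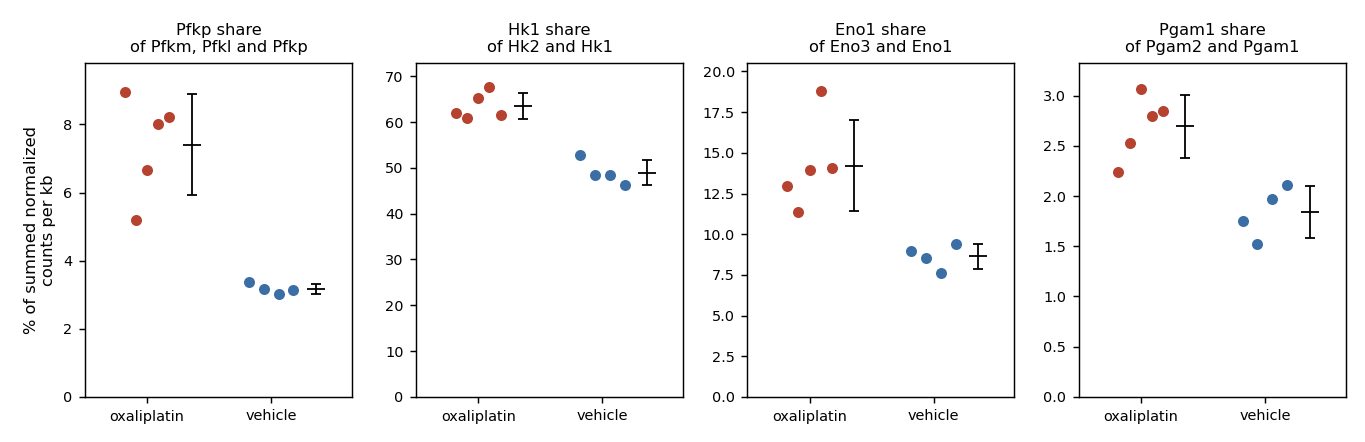
Share of the summed level per kilobase (percent, vertical axis from 0) held by Pfkp, Hk1, Eno1 and Pgam1 among the forms of each enzyme, with oxaliplatin samples left of vehicle samples and the group mean and SD as a bar. Each share is higher in every oxaliplatin sample, from a mean of 2.69% against 1.84% for Pgam1 to 63.5% against 49.0% for Hk1.

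The abundant enzymes of the lower steps that stood in no tested ratio did not pass. Gapdh had 245770.0, 111540.0, 116986, 133348 and 170664 normalized counts in oxaliplatin samples, against 101183, 106378, 123908 and 96087 in vehicle samples (log2 fold change 0.48, standard error 0.21, adjusted p = 0.154 in limma). Oxaliplatin 1 was highest by far, and oxaliplatin 2 and 3 lay inside the vehicle range. Gapdh is often taken as a reference gene, and it spread 2.56-fold over these 9 samples. Aldoa, an aldolase placed with the muscle forms, averaged 176542 ± 49580.4 in oxaliplatin samples and 137507 ± 7909.6 in vehicle samples (adjusted p = 0.290). Pgk1, phosphoglycerate kinase, averaged 11873 ± 1863 and 9350.2 ± 571 (adjusted p = 0.105), with oxaliplatin 2 alone below the highest vehicle sample. Tpi1, triose phosphate isomerase, and Pkm, pyruvate kinase, had log2 fold changes of 0.29 and 0.23 (adjusted p = 0.308 and 0.362). Of the 50-base words of the Gapdh transcript 82.5% stand in other genes too, as do 68.0% for Pgk1 and 34.4% for Pkm, so their counts are uncertain.

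In the pentose phosphate pathway Tkt alone of 6 genes rose, where 9.23% of all genes did. Tkt, transketolase of the branch that links ribose to glycolysis, had 1309.6, 1466, 1440.1, 1506 and 1367 normalized counts in oxaliplatin samples, against 1096, 991, 721 and 1022 in vehicle samples. The groups did not overlap (log2 fold change 0.58 with a standard error of 0.13, adjusted p = 0.00909 in limma), and unlike Gapdh or Pfkp it was not highest in oxaliplatin 1. Of the NADPH-making enzymes, Pgd, phosphogluconate dehydrogenase, had 1256 to 1448 in oxaliplatin samples and 956 to 1242 in vehicle samples, without overlap, and just missed the threshold (log2 fold change 0.33, adjusted p = 0.0542). G6pdx, glucose 6-phosphate dehydrogenase, averaged 282 ± 40.7 in oxaliplatin samples and 202 ± 49.9 in vehicle samples, where vehicle 1 at 272 lay inside the oxaliplatin range (log2 fold change 0.50, adjusted p = 0.0814). Pgls, the lactonase between them, had 1537, 709, 1229.8, 866 and 2063 in oxaliplatin samples, against 1436, 1653, 1868 and 1740.3 in vehicle samples. Its lowest values were oxaliplatin 2 and 4 and its highest was oxaliplatin 5 (log2 fold change -0.48, adjusted p = 0.272). Taldo1, transaldolase, and Rpia, ribose 5-phosphate isomerase, had log2 fold changes of -0.19 and -0.21 (adjusted p = 0.269 and 0.691), and Rpia, the least abundant of the 34 genes per kilobase, had 32.5 to 74.6 normalized counts.

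Among glycogen genes 1 of 8 rose, the liver phosphorylase Pygl, a share near the 9.23% of all genes that rose. Pygl had 133, 172, 161, 138 and 131 normalized counts in oxaliplatin samples, against 93.2, 92.7, 120.5 and 85.7 in vehicle samples (log2 fold change 0.58 with a standard error of 0.17, adjusted p = 0.0398 in limma). Per kilobase it made up 0.384 ± 0.0694% of the 3 phosphorylases in oxaliplatin samples and 0.227 ± 0.0411% in vehicle samples, a small part of the total in both groups. The muscle phosphorylase Pygm, which breaks down glycogen, had 26791, 21204, 20868, 19873 and 22266 in oxaliplatin samples, against 26843, 27564, 27539.8 and 26291 in vehicle samples. It did not pass (log2 fold change -0.29, adjusted p = 0.123), with oxaliplatin 1 inside the vehicle range and the other 4 below it, as for Pfkm. Without oxaliplatin 1 its adjusted p was 0.0273, in a range of 0.0159 to 0.603 over all alternatives. Pygb, the brain form that heart also carries, averaged 23063 ± 1381 in oxaliplatin samples and 23079.8 ± 2724 in vehicle samples (log2 fold change 0.00, 95% interval -0.25 to 0.26).

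On the side of glycogen synthesis, Ugp2, which makes UDP-glucose, had 11016, 4128, 4968, 5885 and 8458 normalized counts in oxaliplatin samples, against 3841, 4268, 4716 and 3738 in vehicle samples. Oxaliplatin 2 lay inside the vehicle range and oxaliplatin 1 was highest, and Ugp2 did not pass (log2 fold change 0.65 with a standard error of 0.25, adjusted p = 0.108 in limma). Gys1, muscle glycogen synthase, and Gbe1, the branching enzyme, had log2 fold changes of 0.07 and 0.21 (adjusted p = 0.792 and 0.386). Phka1 and Phkg1, subunits of the kinase that activates phosphorylase, had 0.29 and 0.14 (adjusted p = 0.204 and 0.729).

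Oxaliplatin samples differed among themselves. Oxaliplatin 1 was the highest of the 5 oxaliplatin samples for 23 of the 34 genes, against 27.5% of all genes tested, and oxaliplatin 2 was the lowest for 17, against 23.1% of all genes. The 34 genes together took 2.86% of all normalized counts in oxaliplatin 1, 1.97% in oxaliplatin 2, 2.12% in oxaliplatin 3, 2.31% in oxaliplatin 4 and 2.57% in oxaliplatin 5, against 1.72% to 1.98% in vehicle samples. The summed endothelial markers were 78048, 40329.7, 58410.5, 54869.8 and 72035 normalized counts in oxaliplatin samples 1 to 5, with the same samples highest and lowest. Among oxaliplatin samples, oxaliplatin 1 also had the highest summed cardiomyocyte markers (2.24 M) and the largest total of normalized counts (36.1 M). Its summed fibroblast markers (77878) and smooth muscle and pericyte markers (21408) were the lowest. Oxaliplatin 2 also had the highest atrial marker score, while oxaliplatin 4, next to it in that score, had Pfkp at 3424 and Eno1 at 19677 normalized counts. Their part in the differences was not tested.

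Other genes of the same pathways were read from 3 further lists. Of 54 listed genes 49 were tested, of which 6 rose and 4 fell, where 9.23% of all genes rose and 5.03% fell, and the median log2 fold change was 0.01, so as lists they lay near the background. In the list of other glycolysis and lactate genes 2 of 17 rose and 1 fell. Ldha, lactate dehydrogenase A, and Slc16a3, a lactate exporter, rose by 0.98 and 1.60 on the log2 scale, while Ldhb had a log2 fold change of -0.44 (limma adjusted p = 0.0156, 0.00635 and 0.0957). Fbp2, the muscle fructose bisphosphatase that runs against phosphofructokinase, had 698, 578, 723, 685 and 1203 normalized counts in oxaliplatin samples, against 1493, 1727, 1513 and 1324 in vehicle samples. It fell by 1.003 on the log2 scale without overlap of the groups (standard error 0.18, adjusted p = 0.00362).

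Of 15 genes of hexosamine, uronic acid, polyol and other pentose steps 3 rose and 0 fell, against 9.23% and 5.03% of all genes. Gfpt2, which sends fructose 6-phosphate into hexosamine synthesis, had 1078, 872, 958, 1617 and 835 normalized counts in oxaliplatin samples, against 341, 408, 365 and 524 in vehicle samples (log2 fold change 1.36 with a standard error of 0.19, adjusted p = 0.00109 in limma). Its paralog Gfpt1 had a log2 fold change of -0.19 (adjusted p = 0.537). Ugdh, which makes UDP-glucuronic acid for matrix polysaccharides, rose by 1.36 and Uap1 of hexosamine synthesis by 0.51 (adjusted p = 0.0015 and 0.0365). All 3 were highest in oxaliplatin 4, the sample with the highest summed fibroblast markers, at 179370 normalized counts, and the part of fibroblasts in this was not tested.

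Of 17 other glycogen genes 1 rose and 3 fell, against 9.23% and 5.03% of all genes. Nhlrc1, known as malin, a ubiquitin ligase of glycogen quality control, had 53.8, 21.1, 48.2, 34.1 and 47.5 normalized counts in oxaliplatin samples, against 64.5, 70.4, 85.0 and 111 in vehicle samples (log2 fold change -1.04, limma adjusted p = 0.0369). Ppp1r3d, a glycogen-targeting subunit of protein phosphatase 1, fell by 0.89 and Phkb, the beta subunit of phosphorylase kinase, by 0.37 (adjusted p = 0.0197 and 0.0478). Pgm2, a phosphoglucomutase by its symbol, rose by 1.04 (adjusted p = 0.0142), and the symbols Pgm1 and Pgm2 have been exchanged between annotation releases. Of 17 regulators of glucose genes 0 passed in limma, and 4 had an unadjusted p under 0.05, as did 3970 of all 13788 genes. The 4 were Mef2d at a log2 fold change of -0.42, Myc at 0.74, Tbc1d4 at -0.50 and Mlxipl, the carbohydrate response factor, at -0.57. Their limma adjusted p was 0.0627, 0.0666, 0.0800 and 0.0873. Hif1a, the hypoxia factor that drives several glycolysis genes, had a log2 fold change of 0.14 (adjusted p = 0.437).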

How the data were processed

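Hearts of mice given oxaliplatin (5 samples) or vehicle (4 samples) were measured by RNA sequencing with a SMARTer library kit and RNA of integrity above 8, per the labels' protocols. The table the authors deposited holds normalized gene counts per the file headers, treated here as a signal, since the factors are not given. The submitters' processing notes name STAR 2.5.1a, Partek and DESeq2, with no role for each. Genome build, annotation and strand setting were not given in the sources used here. Depth was estimated from the step that 1 read is worth; only 73% to 75.9% of low values came within 0.02 of whole reads, so no count test was run.

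The 13788 genes of 13795 with a mean of at least 10 were tested as log2(normalized count + 1) with limma 3.58.1 (R 4.3.3, trend and robust), two-sided, at a Benjamini-Hochberg adjusted p under 0.05 over all genes. A fold change on this scale understates that of low genes. "Rose", "fell" and "passed" refer to this test. Isoform ratios were compared by exact permutation over samples. The statistics were tested on simulated data. Genes were named as members of the list, and from the other lists where they passed, with a few partners and regulators chosen after their values were seen. The members and lists were chosen with earlier results of these data known. Transcript lengths came from GENCODE M21 (GRCm38), principal transcripts, and 13589 symbols were found there. Alternatives covered scaling, pseudocount, filter, model, marker scores as covariates, a replicate block and each sample left out. Same-numbered oxaliplatin and vehicle samples did not deviate together, so they were not paired.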

Additional observations from a re-analysis of the deposited data

Results flagged for a closer look

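In 1 of 84 groups of values a single sample stood far from the others by Dixon's criterion, which chance alone meets in about 1 in 20 groups. Pgam2 had 48686 normalized counts in vehicle 3, against 39975 to 41155 in the other vehicle samples, so that the gap took up 0.865 of the range of the group.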

How the results depend on the processing

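The 8 isoform ratios stayed lower in oxaliplatin under each scaling and pseudocount, in the replicate block, and with single samples or those of high atrial score left out. They were not refitted with marker scores, and the block (smallest p 0.125) and the 3 against 3 samples could not pass. In the other settings the call of Pfkm to Pfkl under quantile normalization (-0.53, exact p = 0.0635), and that of Pygm to Pygb in 7 of 9 fits with 1 sample left out (-0.36 to -0.23, exact permutation p up to 0.0714), was lost. Counts of the 34 genes were less stable.

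Against 7 higher genes, there were 13 with quantile normalization, 13 with a fixed total without mitochondrially encoded genes, 12 with array weights, 15 with an atrial score, 2 with an erythroid score (Pfkp, Eno1), 4 with a fibroblast score (Pfkp, Gapdh, Pgam1, Eno1) and 3 to 9 with 1 sample left out. There were 4 without oxaliplatin 3, 4 or 5 or vehicle 1, and 3 without vehicle 2. Against 0 lower genes, there were 2 with array weights (Pfkm, Pygm), 1 without the samples of high atrial score (Pfkfb1) and 0 to 3 with 1 sample left out. The 3 (Hk2, Pfkm, Pygm) came without oxaliplatin 1. In the main fit 18 of the 34 genes, and 3970 of all 13788 genes, had an unadjusted p under 0.05 in limma, in either direction. With an endothelial score as a covariate, an alternative chosen after the data were seen, limma left 0 genes higher or lower of the 34 and of all genes (10 and 2044 at an unadjusted p under 0.05). That score separates the groups completely, so such a fit can hardly tell it from oxaliplatin.

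The count of all genes higher, 1272, became 1975 with array weights, 764 with the erythroid score, 257 with the fibroblast score and 789 to 1505 with 1 sample left out. The count of all genes lower, 694, became 388 with the fixed total, 1566 with array weights, 1185 at an adjusted p under 0.10, 1053 with the atrial score, 224 with the erythroid score, 147 with the fibroblast score and 321 to 873 with 1 sample left out. Among fits with 1 sample left out the lowest counts, 789 and 321, came without vehicle 3, and 373 and 397 were lower without vehicle 2 and oxaliplatin 4. The fixed total moved the median log2 fold change of all genes to 0.07. The cause of these shifts was not tested.

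Direction changed in these settings. Pgam2 had a log2 fold change of 0.17 with quantile normalization, 0.0705 with the fixed total, 0.0269 with the atrial score, 0.32 with the fibroblast score, 0.00112 without samples of high atrial score and -0.13 to 0.0807 with 1 sample left out. Eno3 had 0.14, 0.0688, 0.0416, 0.41, 0.0877 and -0.13 to 0.0694 in these settings. Pygb had -0.0719 with array weights, -0.00015 with the replicate block, -0.0348 with the endothelial score and -0.0557 to 0.0718 with 1 sample left out. Phkg1 had -0.16 with the erythroid score, -0.0804 with the fibroblast score, -0.0607 without samples of high atrial score and -0.0572 to 0.25 with 1 sample left out. Slc2a4 had 0.20 with the fibroblast score, Gys1 -0.0175 to 0.20 and Rpia -0.35 to 0.0259 with 1 sample left out. With the endothelial score Slc2a1 had -0.17, Hk1 -0.24, Gpi1 -0.18, Pfkl -0.69, Pfkp -0.0799, Aldoa -0.71, Tpi1 -0.59, Gapdh -0.57, Pgk1 -0.22, Pkm -0.59, Rpia 0.20, Gys1 -0.90, Gbe1 -0.16, Ugp2 -0.85 and Phka1 -0.50.

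Correlations of deviations between same-numbered samples were -0.27, -0.06, -0.09 and 0.25, and 1 of 4 vehicle samples correlated best with its own number. The replicate block, in which oxaliplatin 5 has no partner, gave 5 higher genes (Hk1, Pfkp, Pfkfb3, Eno1, Tkt). The ratio of Aldoa to Aldoc was not run. Low counts limit Rpia and Pygl most.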
